A study of Mus musculus with 2 samples.

Results

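The cells described here are gingival macrophages rich in Gpnmb transcripts, 141 of 21208 cells that passed a quality filter in a mouse study of diabetes and periodontitis. Gpnmb encodes a lysosome-associated membrane glycoprotein, and it is widely used as a marker of macrophages that take up and store lipid. A cell was kept with at least 500 unique molecular identifiers (UMIs, counted RNA molecules), at least 200 genes and at most 15% mitochondrial UMIs. It counted as a macrophage with at least 10 UMIs of C1qa, C1qb and C1qc together per 10000 UMIs, the neutrophil genes S100a8 and S100a9 below 3% of UMIs, and no Cd3e or Cd79a. Of the 2699 macrophages, a Gpnmb-positive one held at least 3 Gpnmb UMIs and fewer than 3 UMIs of the resident genes Lyve1, Folr2 and Cd163 together. The members were thus chosen by measured UMIs of Gpnmb and the other genes named, whose levels are given as description. Of the members, 104 came from the diabetic library and 37 from the normoglycemic library.

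Diabetic mice had received streptozotocin, which destroys insulin-producing beta cells, and normoglycemic mice were their controls. All mice were CD11CCre-/-;FoxoLL on a mixed C57B6 and FVB background, carrying loxP sites around an exon of Foxo1 and no Cre, with normal Foxo1 protein per the series description. In both groups inflammation driven by bacteria ran for 2 weeks and a 2-week wait followed. Gingival cells of 4 mice per group were pooled into 1 library, sorted to keep CD45-bearing leukocytes with 20% enrichment of CD11c-bearing cells and to discard dead, endothelial and red blood cells. There was 1 library per group, so no difference between the groups has a replicate check and no p-value was computed. Intervals are 95% intervals that cover counting error only, and diabetes cannot be told apart from any other difference between the pools.

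The deposited matrices held 10496 barcodes with 78220582 UMIs for the diabetic pool and 11280 barcodes with 89339733 UMIs for the normoglycemic pool. The libraries shared 32 barcodes, none of them among the Gpnmb-positive cells. Gpnmb-positive macrophages were deep cells, with medians of 15237 UMIs in the diabetic pool and 13744 in the normoglycemic pool. Other macrophages below the resident cut-off had medians of 10015 and 11000 UMIs in the same pools. A threshold in UMIs is reached more easily in deep cells.

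Lipid-associated macrophages were described in fat, arteries and other tissues. They display Trem2, a receptor for lipids and apoptotic debris, and they express genes for fatty acid binding, cholesterol export and lysosomal digestion. Genes of lysosomes and their acidifying proton pump are often switched on by the MiT/TFE family (Mitf, Tfeb, Tfe3 and Tfec), which binds the E-box sequence CACGTG.

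Sites with this sequence, in the 250 bases before the start of genes that were higher in Gpnmb-positive than in other macrophages, are shown to set the lysosomal genes beside a known motif. Each line gives the gene's strand 5′ to 3′ with CACGTG in capitals, from RefSeq on GRCm38.p6. The start is the RefSeq one. The sites of Ctsd, Ctsl and Gdf15 lie inside the gene's outermost ends in GENCODE, which differ from it.
Lamp1, chr8:13159088-13159117, plus strand: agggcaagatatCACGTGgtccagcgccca
Lamp1, chr8:13159104-13159133, plus strand: tggtccagcgccCACGTGatgccgactggc
Lamp1, chr8:13159121-13159150, plus strand: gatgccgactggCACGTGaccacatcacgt
Ctsd, chr7:142387908-142387937, minus strand: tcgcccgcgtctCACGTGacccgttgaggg
Ctsl, chr13:64370739-64370768, minus strand: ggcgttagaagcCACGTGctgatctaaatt
Atp6v1a, chr16:44139373-44139402, minus strand: ttttttttaaatCACGTGataggcttaacg
Sgsh, chr11:119355522-119355551, minus strand: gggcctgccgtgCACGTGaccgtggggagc
Gdf15, chr8:70632161-70632190, minus strand: cacagggcagggCACGTGtgagcatccagt

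These genes encode a lysosomal membrane protein (Lamp1), lysosomal proteases (Ctsd, Ctsl), a proton pump subunit (Atp6v1a), a sulfatase (Sgsh) and a stress-induced hormone (Gdf15). CACGTG, which reads the same on both strands, lay in that window in 12 of the 77 higher genes that had a promoter entry (15.6%). It lay in 4 of 70 lower genes (5.71%), in 645 of 5780 genes tested in both libraries (11.2%) and in 1854 of 27025 genes with a promoter entry (6.86%). The AP-1 sequence TGAGTCA, searched on both strands, lay in 6.49% of the higher and 7.14% of the lower genes, beside 4.01% of the genes tested. The core CATGTG, also on both strands, lay in 5.19% of the higher and 7.14% of the lower genes, beside 8.7% of the genes tested. The Gpnmb window itself, chr6:49036268-49036567 on the plus strand, held none of the 3 sequences in its upstream bases. These are matches of letters and no binding was measured.

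The markers named for the members, C1qa, C1qb, C1qc and Gpnmb, are part of the rule, so nothing is read from their presence. The macrophage markers Adgre1, Csf1r, Cd68, Mertk and Fcgr1, which the rule does not use, were detected in members of both pools, and so were all 10 lipid-associated markers. All 10 were detected in other and resident macrophages of both pools as well, so detection alone does not set the members apart. Trem2 UMIs were found in 99 of 104 diabetic and 37 of 37 normoglycemic members. Lpl, which encodes lipoprotein lipase, was found in fewer cells, 43 of 104 and 18 of 37. The 5 melanocyte markers, whose cell type also expresses Gpnmb, and the 3 mast cell markers were all at 0. Cd207, the Langerhans cell lectin, was at 0 as well. Osteoclasts also express Gpnmb. Of 7 osteoclast markers, 5 had UMIs in diabetic and 4 in normoglycemic members, and Calcr and Oscar were at 0 in these and in all other macrophages. The 7 summed to 372 and 307 CPM in members, to 472 and 355 CPM in other macrophages and to 123 and 132 CPM in resident ones. Single markers could differ from the sum, and Ctsk, given below, stood higher in members than in other macrophages of both pools.

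Markers of other lineages were present to different extents. The 4 epithelial markers summed to 523 UMIs in diabetic and 5 UMIs in normoglycemic members, and 97.1% of the diabetic UMIs came from 1 cell. That cell also had the highest depth of the diabetic members, 54944 UMIs. The 5 neutrophil markers summed to 1615 UMIs per 1000000 UMIs of the class (CPM) in diabetic and 821 CPM in normoglycemic members, with 75.3% and 53.2% of their UMIs in the top 4 cells. They were also widespread, since 101 of 104 diabetic and 36 of 37 normoglycemic members held 2 or more of these UMIs. So did 589 of 736 diabetic and 771 of 855 normoglycemic other macrophages. The markers stood at 790 CPM in diabetic and 1126 CPM in normoglycemic other macrophages, and at 1137 and 1296 CPM in resident ones. S100a8 and S100a9, which are among the 5, are capped by the rule in all these classes. The 5 monocyte markers summed to 520 CPM in diabetic and 400 CPM in normoglycemic members, with 2 or more UMIs in 68 of 104 and 16 of 37 cells. They stood at 1065 and 868 CPM in other macrophages of the same pools.

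Gpnmb UMIs were rare in cells that should lack the transcript. At least 1 Gpnmb UMI was found in 5.45% of diabetic B cells (95% interval 2.03 to 11.5) and in 0.901% of normoglycemic B cells (0.109 to 3.22). In those B cells, 0.909% and 0.45% reached 3 UMIs, at median depths of 4630 and 4788 UMIs. T cells held at least 1 in 2.85% of diabetic and 0.948% of normoglycemic cells, and neutrophils in 0.679% and 0.356%. Among all kept cells outside the macrophage rule, the shares were 3.15% and 1.17%, and 104 of 8957 and 46 of 9552 reached 3 UMIs. Gpnmb was thus found more often in the diabetic pool outside macrophages too. Resident macrophages, which were deeper, reached 3 Gpnmb UMIs in 46 of 463 diabetic and 9 of 504 normoglycemic cells.

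A larger share of macrophages was Gpnmb-positive in the diabetic pool. The share of non-resident macrophages was 12.38% in the diabetic pool (104 of 840, interval 10.23 to 14.8) and 4.148% in the normoglycemic pool (37 of 892, interval 2.937 to 5.672). The difference was 8.23 percentage points (Newcombe interval 5.68 to 10.9). Among all macrophages the shares were 7.982% and 2.65%, and among all kept cells 1.01% and 0.338%. At a threshold of 1 UMI the shares were 19.29% in the diabetic and 6.839% in the normoglycemic pool, and at 20 UMIs they were 4.524% and 0.2242%. With macrophages thinned to 5000 UMIs before the rule was applied, they were 13% (96 of 737) and 2.34% (20 of 855). The diabetic share was thus also higher at equal depth. The resident genes were thinned as well, so cells that were resident by the full counts could enter these shares.

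The sex calls of the members differed between the pools. Cells were called male by UMIs of Ddx3y, Eif2s3y, Kdm5d or Uty without Xist, and female by Xist without those. Of the called members 70.11% were female in the diabetic pool (61 of 87 calls, interval 59.35 to 79.46) and 36% in the normoglycemic pool (9 of 25 calls, interval 17.97 to 57.48). Other non-resident macrophages were 47.73% and 45.57% female. Among female-called non-resident macrophages, 20.1% were Gpnmb-positive in the diabetic pool (61 of 303) and 3.08% in the normoglycemic pool (9 of 292). Among male-called ones the shares were 8.93% (26 of 291) and 4.52% (16 of 354). Which mice contributed these cells is not known, and sex and mouse cannot be told apart.

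**Figure D1:**
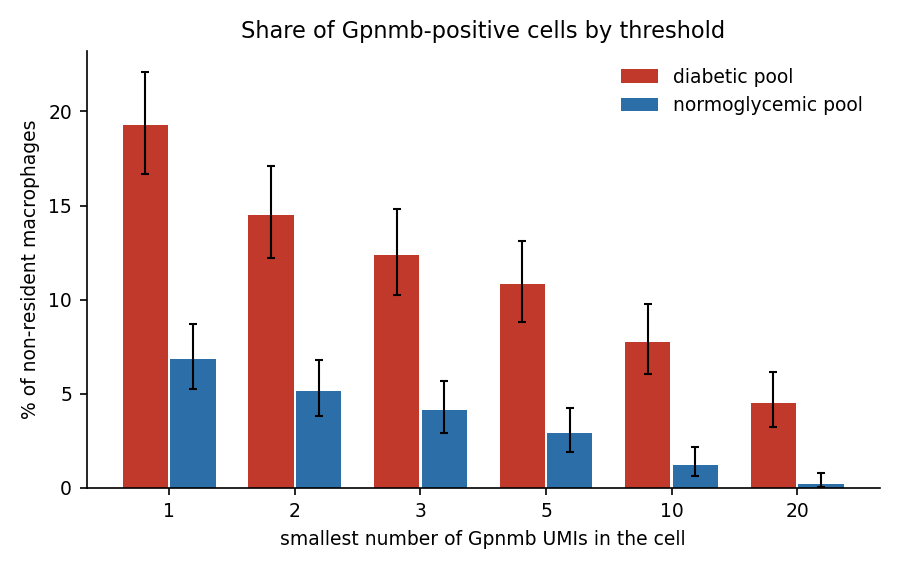
Share of non-resident macrophages (percent, vertical axis) that held at least the number of Gpnmb UMIs on the horizontal axis, in the diabetic pool (red) and the normoglycemic pool (blue). Bars show the share and lines the exact 95% binomial interval, which covers counting error only; at 3 UMIs, the threshold of the rule, the shares were 12.38% and 4.148%.

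Compared with other non-resident macrophages of the same library, Gpnmb-positive cells had more RNA for lipid handling, lysosomal proteases and apolipoprotein E, and less for antigen presentation. A gene is written as higher or lower below where the 95% interval of its ratio of CPM lay wholly beyond 1.5-fold and it reached 10 CPM in either group. In both libraries 98 of 7162 genes were higher by this rule (1.37%) and 97 were lower (1.35%), against 78 and 122 with TMM scaling. Of 28 measured lipid-associated genes, 16 were higher and 2 lower in the diabetic pool, where 3.89% of all genes were higher and 3.66% lower. In the normoglycemic pool 21 of 27 were higher and none lower, beside 3.19% and 2.26% of all genes. The list's median log2 ratio was 0.92 in the diabetic and 1.24 in the normoglycemic pool, beside 0.06 and 0.12 for all genes.

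Fatty acid handling was led by Fabp5, a fatty acid binding protein. Fabp5 stood at 1479 CPM in Gpnmb-positive and 241 CPM in other macrophages of the diabetic pool, a ratio of 6.13 (5.77 to 6.52). In the normoglycemic pool it stood at 1885 and 236 CPM, a ratio of 7.98 (7.39 to 8.61). Most members carried it: 96 of 104 diabetic and 31 of 37 normoglycemic cells. With cells thinned to 5000 UMIs, Fabp5 was found in 87% of diabetic members, 33.5% of diabetic other macrophages and 4.44% of diabetic B cells. The same shares were 80%, 34.9% and 10.6% in the normoglycemic pool. The lipid droplet protein gene Plin2 was higher too, at 636 against 332 CPM in the diabetic pool and 602 against 308 CPM in the normoglycemic pool. The fatty acid transporter gene Cd36 stood at 189 against 101 CPM and 205 against 86.6 CPM. In the fatty acid list as a whole, 5 of 22 genes were higher and none lower in the diabetic pool, and 6 of 25 and none in the normoglycemic pool. Over all genes, 3.89% and 3.19% were higher in these pools.

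The lipid receptor gene Trem2 and Apoe were higher in both pools. Trem2 stood at 589 CPM in Gpnmb-positive and 212 CPM in other macrophages of the diabetic pool (ratio 2.78, 2.57 to 3.01). It stood at 658 and 280 CPM in the normoglycemic pool (ratio 2.35, 2.09 to 2.63). Apoe, the main apolipoprotein made by macrophages, reached 22173 against 7574 CPM in the diabetic pool and 24137 against 8322 CPM in the normoglycemic pool. The ratios were 2.93 (2.89 to 2.97) and 2.90 (2.85 to 2.96). The cholesterol efflux pump gene Abca1, an LXR target, was not past the limit, at 279 against 194 CPM in the diabetic and 420 against 251 CPM in the normoglycemic pool. In the list of cholesterol and LXR target genes, 5 of 22 were higher and 1 lower in the diabetic pool, and 4 and none in the normoglycemic pool, beside 3.89% and 3.19% of all genes higher. Ch25h, which makes 25-hydroxycholesterol, was the lower one.

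Several lysosomal protease genes were higher in both pools. Ctsd, the aspartic protease cathepsin D, stood at 2304 CPM in Gpnmb-positive and 572 CPM in other macrophages of the diabetic pool, a ratio of 4.03 (3.85 to 4.21). The normoglycemic values were 2600 and 592 CPM, a ratio of 4.39 (4.13 to 4.67). Every member held Ctsd UMIs in both pools. Ctsl, cathepsin L, had ratios of 3.76 (3.55 to 3.98) and 3.92 (3.55 to 4.33) in the diabetic and normoglycemic pools. Ctsk, the collagen-digesting cathepsin of osteoclasts, stood at 74.1 against 6.19 CPM in the diabetic and 25.9 against 1.63 CPM in the normoglycemic pool, in 29 of 104 and 8 of 37 members. One cell held 41% of the diabetic Ctsk UMIs. Of 11 cathepsin and legumain genes, 5 were higher in the diabetic and 7 in the normoglycemic pool, and none was lower. Over all genes, 3.89% and 3.19% were higher.

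Of 30 lysosomal enzyme and membrane genes, 9 were higher in the diabetic pool and 11 in the normoglycemic pool. The shares of all genes that were higher were 3.89% and 3.19%. Lamp1, whose promoter sites are shown above, stood at 1342 against 696 CPM in the diabetic and 1493 against 679 CPM in the normoglycemic pool. Psap, the saposin precursor that lipid-degrading enzymes need, stood at 4130 against 2292 CPM and 5259 against 2585 CPM. Npc1, the lysosomal cholesterol exporter, stood at 155 against 73.7 CPM and 235 against 94.9 CPM. Of 17 proton pump subunits 3 were higher in the diabetic (17.6%) and 2 in the normoglycemic pool (11.8%). Atp6v0d2, a pump subunit of osteoclasts and macrophages, stood at 54.6 against 2.24 CPM in the diabetic pool and 33.9 against 2.35 CPM in the normoglycemic pool, in 27 of 104 and 7 of 37 members.

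Further genes were higher in both pools. Syngr1, a vesicle membrane protein, had ratios of 9.52 (7.67 to 11.86) in the diabetic and 11.41 (8.75 to 14.81) in the normoglycemic pool. Gdf15 had ratios of 4.63 (4.08 to 5.26) and 6.02 (5.41 to 6.68). The glutathione transferases Mgst1 and Gstm1 were higher by 5.58- and 3.06-fold in the diabetic pool and by 4.80- and 3.70-fold in the normoglycemic pool. Spp1, osteopontin, was 3.11-fold (2.88 to 3.35) and 2.75-fold (2.48 to 3.05) higher, but a few cells held much of it. In female-called cells of the normoglycemic pool its log2 ratio was -0.44. The top 4 cells held 47.6% of diabetic and 51.7% of normoglycemic Spp1 UMIs, and in B cells 10% and 16.7% held a Spp1 UMI. Serpinb6a, Pld3 and Ddhd1 were higher too, with ratios of 3.00 to 3.43 in the diabetic and 3.13 to 3.90 in the normoglycemic pool.

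**Figure D2:**
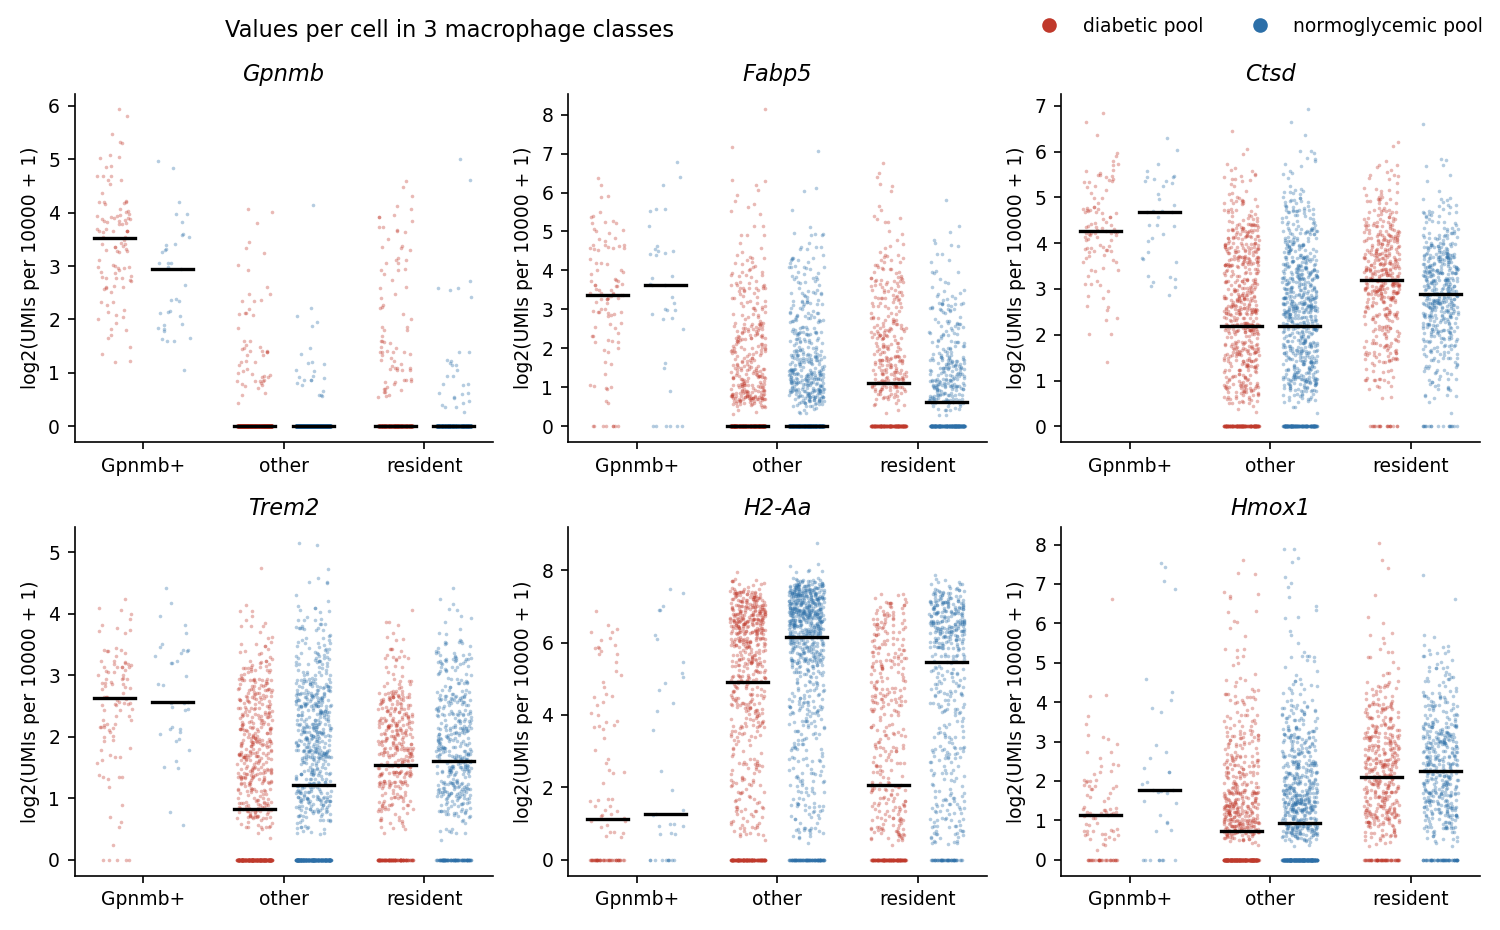
Level per cell, as log2 of UMIs per 10000 plus 1 (vertical axis), of 6 genes in Gpnmb-positive, other non-resident and resident macrophages of the diabetic pool (red, left of each pair) and the normoglycemic pool (blue). Each point is a cell and each black line a median; Gpnmb sets the first class by the rule, and Fabp5 and Ctsd medians lie highest there while H2-Aa medians lie lowest.

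**Figure D3:**
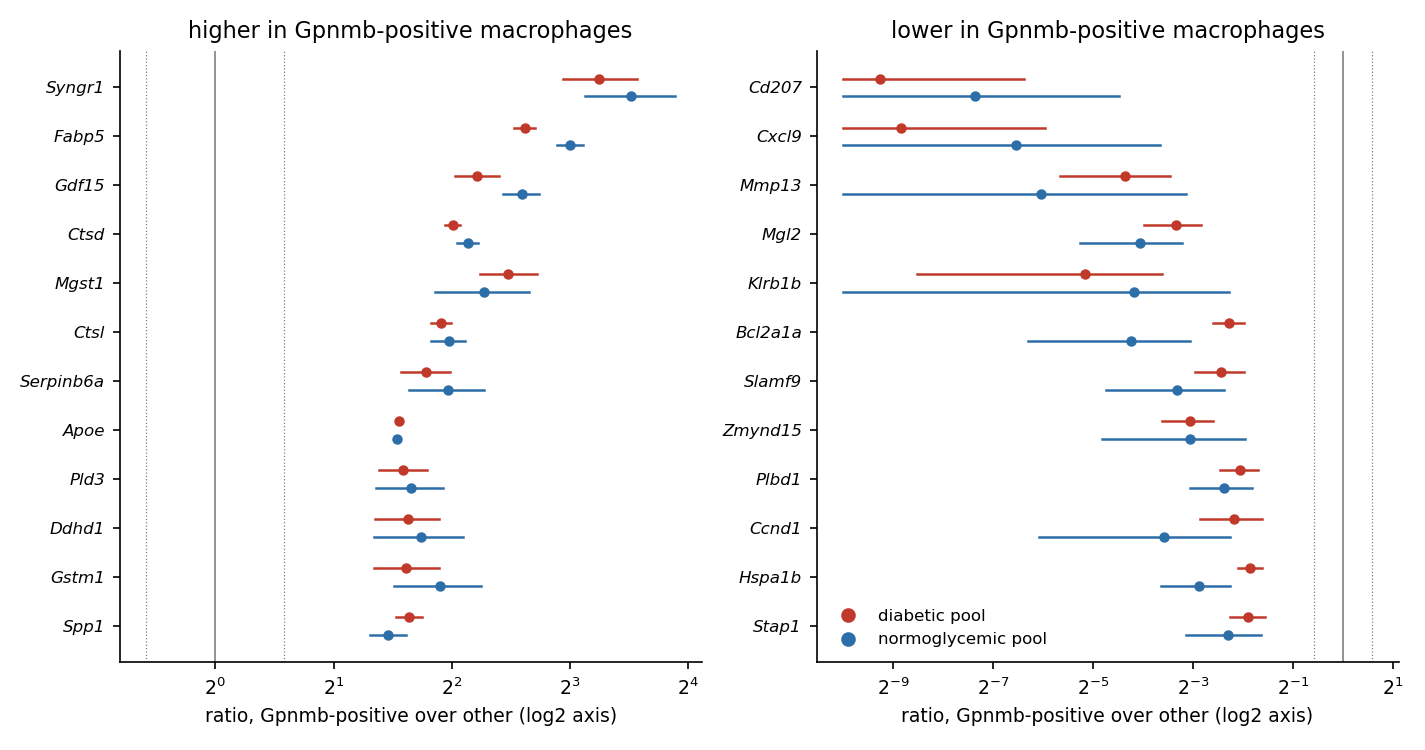
Ratio of CPM in Gpnmb-positive over other non-resident macrophages (horizontal log2 axis) for the 12 named genes in each direction, in the diabetic pool (red) and the normoglycemic pool (blue). Points are ratios with 0.5 counts added, lines are 95% counting intervals that stop at the axis edge where they have no lower bound, and dotted lines mark 1.5-fold; Syngr1 and Fabp5 lie farthest to the right.

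RNA for antigen presentation, summed over the members, was lower in Gpnmb-positive cells. Of 10 measured MHC class II genes, 9 were lower in the diabetic pool (median log2 ratio -2.13) and 7 in the normoglycemic pool (median -1.31), and none was higher. Over all genes, 3.66% and 2.26% were lower. H2-Aa, a class II chain, stood at 1518 CPM in Gpnmb-positive and 6493 CPM in other macrophages of the diabetic pool. It stood at 3882 and 9105 CPM in the normoglycemic pool. Cd74, the invariant chain, stood at 3472 against 15655 CPM and 7132 against 20385 CPM. The members were uneven: the median was 1.18 and the highest 115 H2-Aa UMIs per 10000 in diabetic cells, and 1.41 and 178 in normoglycemic cells. In the normoglycemic pool the top 4 cells held 64.8% of H2-Aa UMIs. There the 9 female-called members had 9335 CPM of H2-Aa, near the level of all other macrophages, and the 16 male-called ones 728 CPM. Over the alternatives the list's median log2 ratio ran from -2.59 to -1.62 in the diabetic and from -3.34 to -0.41 in the normoglycemic pool.

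Part of the lower genes mark a cell type among the other macrophages. Cd207, the Langerhans cell lectin, was at 0 in members of both pools, against 187 CPM in diabetic and 163 CPM in normoglycemic other macrophages. The limit of 3 counts places the ratio at no more than 0.00974 and 0.0366. Cells with a UMI of Cd207 or Epcam made up 12.5% of diabetic and 15.9% of normoglycemic other macrophages, against 2 of 104 and 0 of 37 members. Without these cells, a comparison added after the data were seen, 83 genes were higher and 73 lower in both libraries. Cxcl9, an interferon-induced chemokine, was also at 0 in members, against 140 and 93.1 CPM in other macrophages. Mgl2, a lectin of dermal dendritic cells and macrophages, stood at 17 against 176 CPM and 17.9 against 315 CPM.

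Inflammatory genes had many lower members in both pools, and type I interferon genes in the diabetic pool. Of 30 inflammatory genes 14 were lower and 2 higher in the diabetic pool, and 15 lower and none higher in the normoglycemic pool. Lower genes made up 3.66% and 2.26% of all genes in these pools. Ccl4, a chemokine, stood at 1203 against 6130 CPM in the diabetic pool and at 1632 against 3532 CPM in the normoglycemic pool. Il1b stood at 3707 against 5893 CPM and 2409 against 5460 CPM. In thinned cells Il1b was also found in 46.7% of diabetic and 51.9% of normoglycemic B cells, so its background was large. Of 21 type I interferon genes 16 were lower in the diabetic pool (median log2 ratio -1.80) and 2 in the normoglycemic pool (median -0.50). No glycolysis gene was past the limit in either pool, among 19 measured. The difference between the pools in these counts was not tested, since each pool is 1 library.

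Most regulator genes were not past the limit: 3 of 30 were higher and 1 lower in the diabetic pool, and 3 of 31 and none in the normoglycemic pool. Over all genes, 3.89% and 3.19% were higher. Mitf stood at 49.2 against 33 CPM in the diabetic and 53.8 against 43.5 CPM in the normoglycemic pool. Tfec, its macrophage relative, stood at 45.5 against 16.6 CPM and 43.8 against 22.8 CPM, past the limit in the diabetic pool. Tfe3 stood at 58.9 against 49.5 CPM and 57.8 against 68.7 CPM. Tfeb stood at 22.5 against 13.2 CPM and 19.9 against 16 CPM. Pparg, the fatty acid receptor, reached 5.46 against 6.05 CPM in the diabetic pool, below the 10 CPM needed, so it was not tested there. In the normoglycemic pool it reached 12 against 7.55 CPM, near that limit. Nr1h3, the LXR alpha gene, stood at 26.7 against 15.1 CPM and 21.9 against 17.2 CPM. Rxra, the partner of both receptor families, stood at 32.2 against 14.1 CPM in the diabetic and 49.8 against 16.5 CPM in the normoglycemic pool, higher in both. Bhlhe41 was higher in both pools as well, at 23.1 against 5.26 CPM and 33.9 against 4.28 CPM.

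Within the diabetic pool some genes followed the number of Gpnmb UMIs and others did not. Fabp5 stood at 227 CPM in 678 macrophages with no Gpnmb UMI, 437 CPM in 58 cells with 1 or 2, 926 CPM in 13 cells with 3 or 4, 1042 CPM in 26 cells with 5 to 9, 1483 CPM in 27 cells with 10 to 19, and 1781 CPM in 38 cells with 20 or more. Ctsd stood at 528, 1172, 1626, 2286, 2434 and 2397 CPM over the same groups. H2-Aa stood at 6730, 3280, 3398, 1455, 1012 and 1394 CPM. Neither Ctsd nor H2-Aa was ordered through the last groups. Mitf had no such order, at 32.9, 34.5, 79, 58.6, 56.6 and 33.9 CPM, nor had Spp1, at 181, 783, 226, 369, 1433 and 488 CPM. Hmox1 stood at 208, 605, 107, 217, 532 and 103 CPM. Next to the threshold, the 9 diabetic cells with exactly 3 Gpnmb UMIs had 739 CPM of Fabp5 and 333 CPM of Ctsl, and the 18 with exactly 2 had 747 and 616 CPM. The 10 normoglycemic cells with exactly 3 had 300 CPM of Fabp5 and 1148 CPM of Ctsl, and the 9 with exactly 2 had 394 and 211 CPM. In the normoglycemic pool the member groups held 15 cells or fewer each, so no trend is read from them. Median depth was 10210 UMIs in the cells without Gpnmb and 16824 in those with 20 or more.

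Resident macrophages with 3 or more Gpnmb UMIs, which the rule leaves out, also had more Fabp5 and Ctsd than other resident cells. The 46 such diabetic cells had 1774 CPM of Fabp5 and 2450 CPM of Ctsd, against 418 and 907 CPM in the 417 resident cells below 3 Gpnmb UMIs. The 9 normoglycemic ones had 827 and 2690 CPM, against 211 and 798 CPM in 495 resident cells.

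Against resident macrophages of the same library, 49 of 7292 genes were higher in Gpnmb-positive cells in both pools (0.672%) and 103 were lower (1.41%). The members were chosen for few UMIs of resident genes, so nothing is read from the resident genes outside the rule. They were lower in 21 of 24 in the diabetic pool, where 3.61% of all genes were lower, and 18 of 24 in the normoglycemic pool, where 2.29% were. Their median log2 ratios were -2.22 and -1.96. F13a1, a clotting transglutaminase of tissue macrophages, stood at 297 against 1431 CPM in the diabetic pool and 329 against 1448 CPM in the normoglycemic pool. Lifr, Fgfr1, Cbr2 and Ednrb were lower too, with ratios of 0.0993 to 0.203 in the diabetic pool.

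Higher genes against resident cells included Il7r, the interleukin-7 receptor, at 157 against 40.4 CPM in the diabetic pool and 207 against 48.6 CPM in the normoglycemic pool. Apoc2, an activator of lipoprotein lipase, stood at 267 against 69.2 CPM and 151 against 36.9 CPM. Acp5, the tartrate-resistant acid phosphatase, stood at 265 against 79.2 CPM and 233 against 89.9 CPM. Lgals3, a lectin of phagocytes, stood at 3775 against 1776 CPM and 3138 against 953 CPM. Fabp5 had a ratio of 2.37 (2.25 to 2.5) in the diabetic and 8.24 (7.6 to 8.93) in the normoglycemic pool, and stood at 623 and 229 CPM in the resident cells of those pools. Mmp12 passed in both pools at 95.3 against 35.8 CPM and 269 against 28.6 CPM, yet in the normoglycemic members 1 cell held 99.3% of its UMIs. Of the lipid-associated genes 14 of 28 were higher and 2 lower in the diabetic pool, beside 2.11% of all genes higher. In the normoglycemic pool 19 of 27 were higher and none lower, beside 1.78% of all genes higher. In the diabetic pool, Cd36 and Hmox1 were the lower ones. Lysosomal and antigen presentation genes differed less from resident than from other macrophages. Of 30 lysosomal genes 2 were higher in the diabetic and 5 in the normoglycemic pool (median log2 ratios 0.10 and 0.41). Of 17 proton pump subunits 1 and 2 were higher. Of 9 MHC class II genes 4 and 2 were lower (medians -0.69 and -0.60), beside 3.61% and 2.29% of all genes.

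Between the diabetic and the normoglycemic members, 111 of 7602 genes were higher in diabetic cells (1.46%) and 165 were lower (2.17%). With TMM scaling the counts were 140 and 139, and with median-of-ratios scaling 141 and 134. Far fewer cells stand behind these than behind the comparisons within a library, and single cells set some of them. Of the calls, 77 of 111 higher and 97 of 165 lower ones were also past the limit without each gene's top cell. Here the gene's UMIs in the top cell of each pool were taken out and the totals were kept. A top cell tends to hold a larger share where cells are fewer, as for B2m, with 8.14% of normoglycemic and 2.94% of diabetic UMIs. That tends to raise these ratios, and how far it set the counts was not tested. The lipid-associated list itself was nearly level, with 1 of 28 genes higher and 5 lower and a median log2 ratio of -0.14, beside -0.08 for all genes. The higher one was Fabp4 and the lower ones were Lpl, Lipa, Ctsb, Mmp12 and Hmox1. Without the top cells Fabp4 and Hmox1 were still past the limit, and Lpl, Lipa, Ctsb and Mmp12 were not. For Mmp12 1 cell held 99.3% of the normoglycemic UMIs, and its log2 ratio without the top cells was 4.44. In female calls Hmox1 had a ratio of 1.72. Lysosomal genes had 1 lower gene, Lipa, among 30.

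Genes higher in diabetic members included Hilpda, Fn1, Ecm1 and Mt2, while the lists they belong to had few calls. Of 27 matrix, protease and growth factor genes 5 were higher and 2 lower (median log2 ratio 0.01), of 21 antioxidant and metallothionein genes 4 and 3 (0.07), and of 25 fatty acid genes 2 and 1 (-0.18). Over all genes, 1.46% were higher and 2.17% lower. Hilpda, a lipid droplet protein that restrains fat breakdown, stood at 443 CPM in diabetic and 89.7 CPM in normoglycemic members, a ratio of 4.94 (3.66 to 6.84). It was found in 70 of 104 and 9 of 37 cells. Fn1, fibronectin, stood at 1572 CPM in diabetic and 691 CPM in normoglycemic members (ratio 2.27, 2.03 to 2.55). Ecm1, a secreted matrix protein, stood at 1318 and 410 CPM (ratio 3.21, 2.78 to 3.72). In diabetic members 101 of 104 cells held Ecm1 and in normoglycemic members 34 of 37. Mt2, a metal-binding metallothionein, stood at 398 and 19.9 CPM (ratio 20, 10.8 to 41.9), in 50 of 104 and 7 of 37 cells.

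Cytokine genes were among the higher ones. Il1a, interleukin-1 alpha, stood at 457 CPM in diabetic and 134 CPM in normoglycemic members (ratio 3.42, 2.66 to 4.46). In thinned cells it was found in 48% of diabetic and 20% of normoglycemic members, and in 8.89% and 16.3% of B cells. Il6 stood at 66.8 and 12 CPM, with all normoglycemic UMIs in 1 cell. Cxcl1, a neutrophil-drawing chemokine, stood at 3200 and 1726 CPM. Tnip3, an inhibitor of NF-kappaB signalling, stood at 177 and 37.9 CPM, but its log2 ratio was -0.12 when 2 Gpnmb UMIs were enough for a member. Chil3, a secreted lectin of monocytes and alternatively activated macrophages, stood at 293 and 73.7 CPM. Of 25 inflammatory genes, 5 were higher and 3 lower, beside 1.46% and 2.17% of all genes. The neutrophil markers, given above, were also at a higher level in diabetic members, but not in other or resident macrophages of the diabetic pool. Their part in these differences was not tested. Without cells holding 2 or more UMIs of epithelial, fibroblast, mural, T, B, mast or melanocyte markers, which leaves neutrophil markers in, 70 genes in place of 111 were higher in diabetic members.

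The keratin genes of this comparison came from 1 cell. Krt5, Krt14, Krt15, Krt13, Lgals7 and Mt3 were named by the rule, and Krt5 stood at 103 CPM in diabetic and 0 CPM in normoglycemic members. The diabetic cell with the most keratin held 602 of 617 UMIs of Krt5, Krt13, Krt14 and Krt15 (97.6%). Without that cell the log2 ratio of Krt14 was -1.01, and 102 genes were higher and 166 lower. Cav1, caveolin-1, stood at 89.9 CPM in diabetic and 7.97 CPM in normoglycemic members, in 38 of 104 and 3 of 37 cells. Areg, amphiregulin, stood at 61.3 and 1.99 CPM, but only 7 of 104 diabetic cells held it and the top 4 held 91.1% of its UMIs.

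Genes lower in diabetic members included the transcription factors Egr1, Jun and Fos. Egr1 stood at 208 CPM in diabetic and 917 CPM in normoglycemic members (ratio 0.227, 0.197 to 0.262), and Jun at 311 and 966 CPM (ratio 0.322, 0.284 to 0.365). Fos stood at 1519 and 4105 CPM. Gdf15 stood at 297 and 923 CPM, and Rhob, a small GTPase, at 197 and 626 CPM. Ly6e, a membrane protein induced by interferon, stood at 181 and 606 CPM, and Ccl12, a monocyte chemokine, at 17 and 106 CPM. Resident genes outside the rule were lower in 10 of 20 and higher in 2, beside 2.17% and 1.46% of all genes. Their median log2 ratio was -0.85, and it was 0.28 in male calls. The lower ones included Mrc1, the mannose receptor, at 400 against 705 CPM, and Maf at 277 against 560 CPM.

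Some of the largest lower genes rested on few cells. Retnla, at 13.4 CPM in diabetic and 685 CPM in normoglycemic members, had 99.4% of its normoglycemic UMIs in 1 cell, and without each pool's top cell its log2 ratio was 1.01. Slc40a1, the iron exporter ferroportin, was at 0 in 104 diabetic members and 114 CPM in normoglycemic ones, with 82.5% in 1 cell. Hmox1, haem oxygenase-1, stood at 239 and 1708 CPM, with 81% of the normoglycemic UMIs in 4 cells. Ftl1, ferritin light chain, stood at 6857 and 11511 CPM. Among 11 iron and haem genes 4 were lower and none higher, beside 2.17% and 1.46% of all genes.

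**Figure D4:**
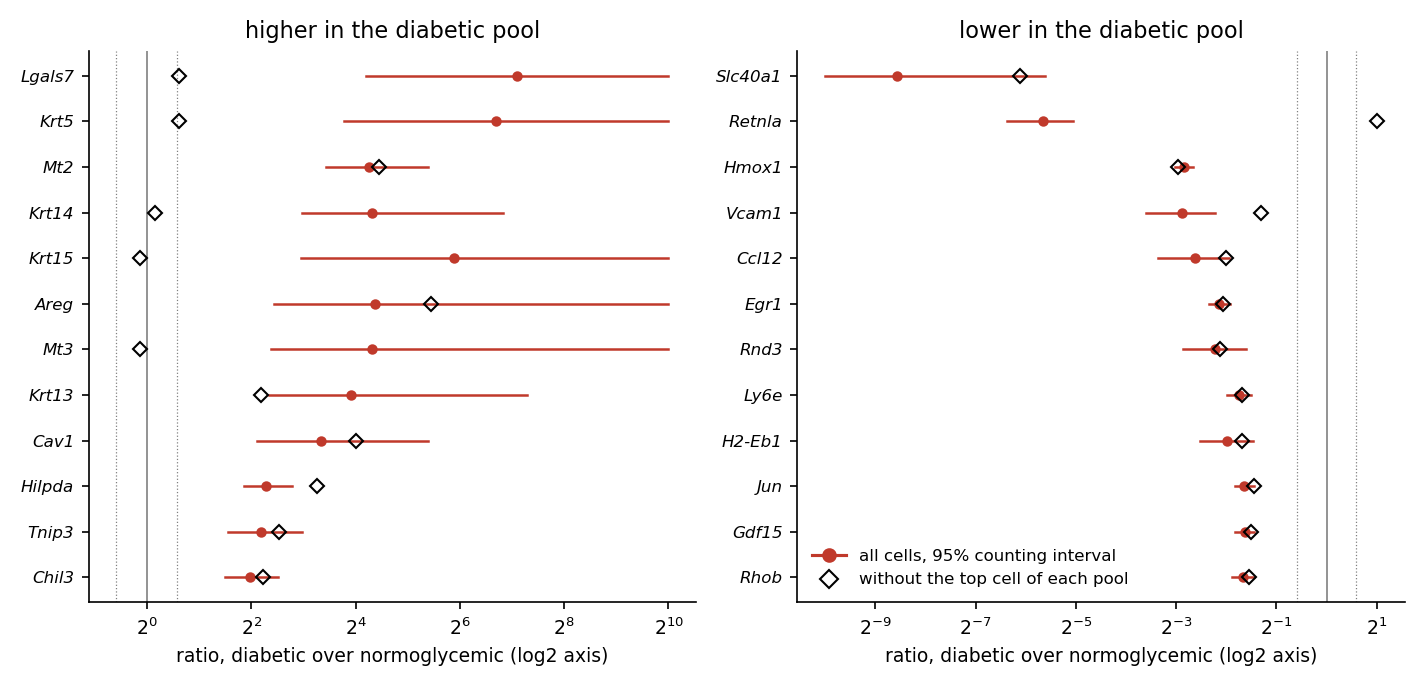
Ratio of CPM in diabetic over normoglycemic Gpnmb-positive macrophages (horizontal log2 axis) for the 12 named genes in each direction. Red points are ratios with 0.5 counts added and red lines 95% counting intervals, which stop at the axis edge where unbounded; black diamonds leave out each gene's top cell in each pool, where Lgals7, Krt5, Krt14, Krt15 and Mt3 have log2 ratios of -0.13 to 0.61 and Retnla 1.01, and dotted lines mark 1.5-fold.

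The differences between the pools were not the same in male-called and female-called members. In 26 diabetic and 16 normoglycemic male-called cells H2-Aa stood at 1766 and 728 CPM, a ratio of 2.43 (2.02 to 2.94). In 61 diabetic and 9 normoglycemic female-called cells it stood at 1385 and 9335 CPM, a ratio of 0.148 (0.138 to 0.16). Over all members the MHC class II list had 4 of 9 genes lower and none higher, with a median log2 ratio of -1.04, which was 1.46 in male calls. Of all genes, 2.17% were lower over all members. Spp1 had ratios of 0.502 (0.425 to 0.593) in male and 4.81 (3.26 to 7.41) in female calls. Cav1 had 0.75 and 21.7, and Chil3 had 1.13 (0.552 to 2.44) and 10.1 (4.87 to 25.3). Il1b stood at 3142 against 2997 CPM in male and 3974 against 1158 CPM in female calls.

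Several other genes had the same direction in both calls. Hilpda was 2.23-fold (1.54 to 3.32) higher in diabetic male calls and 10.2-fold (5.16 to 23.9) in female calls. Mt2 had ratios of 52.8 and 7.88, and Tnip3 of 5.06 and 11.7. Egr1 had ratios of 0.172 and 0.281, Jun 0.379 and 0.302, Gdf15 0.242 and 0.491, Rhob 0.291 and 0.259, and Ccl12 0.106 and 0.0653. Gpnmb and Hmox1 did not: Gpnmb had 0.856 (0.708 to 1.04) and 2 (1.66 to 2.44), and Hmox1 had 0.0868 (0.069 to 0.108) in male and 1.72 (1.11 to 2.8) in female calls.

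**Figure D5:**
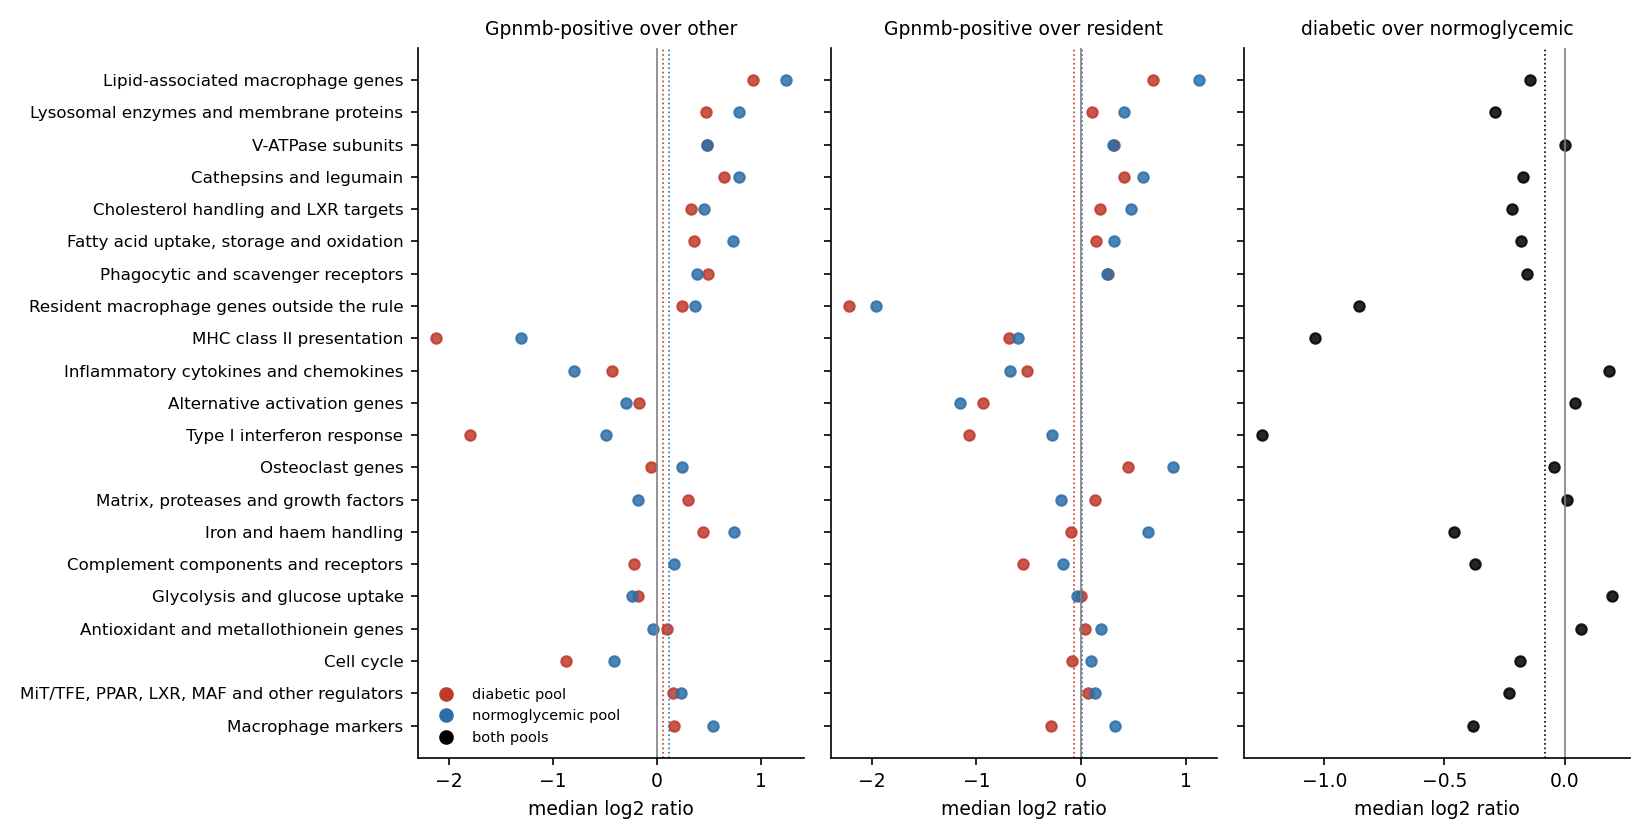
Median log2 ratio (horizontal axis) of each gene list in the comparison of Gpnmb-positive with other non-resident macrophages (left), with resident macrophages (middle) and of diabetic with normoglycemic members (right). Red points are the diabetic pool, blue points the normoglycemic pool and black points both pools; dotted lines give the median of all genes tested, and lipid-associated genes lie to the right of it and MHC class II genes to the left in the first 2 panels.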

How the data were processed

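The matrices hold raw UMI counts per gene and cell deposited by the authors, made with Chromium 3' v3 kits per the labels' protocols. The sources differ on the Cell Ranger release: the matrices name 4.0.0, per the file headers, while 6.0.2 and build mm10 come from the submitters' processing notes. No raw reads were used. In each matrix the shallowest barcode held 500 UMIs. Only the 32285 genes were analysed, and the 4 antibody features were counted separately.

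The members and gene lists were chosen with earlier results of these data known. Counts were summed over the cells of a class and scaled to CPM. Ratios have exact conditional binomial 95% intervals, shares Clopper-Pearson and their difference Newcombe intervals; 0.5 counts were added before taking log2. No test across samples was possible. No doublet caller was run, and doublets were treated only by leaving out the deepest cells or those with other lineages' markers. Named genes had at least 50 CPM and 50 UMIs in the group where higher, an interval wholly beyond 1.5-fold (in both libraries within a library) and at least 0.5 times the level of all other cells, and were ranked by the bound nearer 1, up to 12 per direction; rule genes, sex-linked genes and antigen receptor genes were left out. Further genes are list members or regulators; in some lists members other than those of highest level are named, chosen after their values were seen. Cells were thinned to 5000 UMIs for shares. Of the listed genes 1 (Mx2) had no match. The interval and the calling rule were tested on simulated class totals with counting error only. That simulation had no variation between cells or mice, so it cannot check calls that rest on few cells. RefSeq promoters on GRCm38.p6 gave sequences. Python 3.11.15, numpy 2.4.6, scipy 1.17.1, pandas 2.3.3, matplotlib 3.10.9, R 4.3.3 and edgeR 4.0.16 (TMM factors only) were used. Alternatives changed the Gpnmb, C1q and resident limits, depth, cell filter, scaling, expression filter, weighting and the cells left out. Leaving out each gene's top cell, the keratin-rich cell or the cells with Cd207 or Epcam was chosen after the data were seen. A few listed genes are not reported here.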

Additional observations from a re-analysis of the deposited data

Results flagged for a closer look

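Some genes went opposite ways in the 2 pools, each with its whole interval beyond 1.5-fold. These differences between pools were not tested. They come from 7162 genes tested in both pools against other and 7292 against resident macrophages. Against other non-resident macrophages, the ratios in the diabetic and the normoglycemic pool were 1.92 and 0.46 for Thbs1, 0.186 and 4.72 for Mmp9, 0.275 and 2.89 for Vcam1, 3.57 and 0.0808 for Ppbp, 1.71 and 0.139 for Mt2, and 2.0 and 0.0356 for Inhba. Against resident macrophages they were 2.01 and 0.401 for Flrt3, 0.387 and 2.86 for Hmox1, 2.56 and 0.0231 for Inhba, and 0.3 and 2.99 for Igfbp6. Single cells carried part of these: 1 cell held 75.4% of normoglycemic Vcam1, 81.8% of diabetic Ppbp, 74.4% of diabetic Inhba and 73.3% of normoglycemic Igfbp6 UMIs in members. Thbs1 encodes thrombospondin-1 and Inhba the activin A subunit.

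In results computed by sex call, 3 genes had diabetic over normoglycemic ratios with whole intervals beyond 1.5-fold in opposite directions, which was not tested either. Only the genes named between the pools and a few others, with these 3 among the others, were compared there. The count is thus no share of all genes. The ratios in male and female calls were 2.43 and 0.148 for H2-Aa, 2.03 and 0.213 for Cd74, and 0.502 and 4.81 for Spp1. For H2-Eb1 (9.01 and 0.0778) and Hmox1 (0.0868 and 1.72) the intervals lay on opposite sides of 1 but not wholly beyond 1.5-fold in both calls.

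The antibody capture features, which the comparisons do not use and whose antibodies the labels do not name, held 1499 UMIs in diabetic and 406 UMIs in normoglycemic members, with medians of 6 and 11 UMIs per cell.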

How the results depend on the processing

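No paired analysis was possible because each group has 1 library, and for the same reason no replicate could be left out. The counts of genes higher and lower in both libraries were 98 and 97 against other macrophages and 49 and 103 against resident ones, those between the pools 111 and 165, and the share difference was 8.23 percentage points. Over all alternatives 101 of these values moved by less than their limit and 16 by more; the cause was not tested. Without each gene's top cell, 65 genes were higher and 146 lower against other macrophages, and 100 were lower in diabetic members. That step tends to lower ratios of members over other macrophages and to raise those of diabetic over normoglycemic members, since it takes more where cells are fewer. In female calls 63 were higher against other and 59 lower against resident macrophages, and the share difference was 17.0. In male calls 54 were lower against other macrophages, 33 lower against resident ones and 96 lower in diabetic members, and the share difference was 4.41; with no resident UMIs it was 5.11. At 50 CPM, which tests fewer genes, 61 were lower against other macrophages, 67 lower against resident ones and 60 higher in diabetic members. With the rule on thinned cells 77 were higher against resident macrophages, and without other lineages' cells 70 were higher in diabetic members. TMM and median-of-ratios scaling shifted all log2 ratios by -0.13 and -0.14 in the normoglycemic comparison with other macrophages, and median of ratios by 0.11 between the pools.

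Some log2 ratios changed sign between the pools. Retnla had 1.22 at 5 Gpnmb UMIs, 1.26 at 3 per 10000, 0.04 on thinned cells, 1.81 in male calls and 1.01 without top cells. Tnip3 had -0.12 at 2 Gpnmb UMIs. Krt14 had -0.78 without the deepest 5% of macrophages, -0.19 without other lineages' cells and -1.01 without the keratin-rich cell; Krt13 had -0.08 without that cell and -2.17 in female calls. Male calls gave Cav1 -0.51, H2-Eb1 2.63, and medians of 0.28 for resident and 1.46 for MHC class II genes; female calls gave Hmox1 0.76. Of normoglycemic cells, Mmp12 over resident had -4.43 in male calls and -1.81 without top cells. Spp1 over other macrophages had -0.44 in female calls. The medians over resident macrophages were 0.03 for inflammatory genes in male calls, and 0.52 for MHC class II and -0.24 for iron genes in female calls.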
